A study of Mus musculus with 5 samples.

Results

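The genes described here are 8 enzymes that break down or make arginine, glutamine, glutamate and aspartate, chosen as a named list from 36529 gene rows. All 8 were found by symbol in each of the 3 deposited tables. Arginine is handled by Arg1 (chr10:24915207-24927470), Arg2 (chr12:79130788-79156301), Ass1 (chr2:31470270-31520670) and Asl (chr5:130011258-130024381). Glutamine and glutamate are handled by Glul (chr1:153899929-153909723) and Glud1 (chr14:34310727-34345033). Aspartate is made and used by Got1 (chr19:43499752-43524605) and Got2 (chr8:95864133-95888401). Positions are of whole genes in GRCm38.

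Single cells of mice with 1 or no working copy of the glucagon receptor gene Gcgr were profiled in 5 droplet libraries. Of the islet libraries 1 was from a GCGR heterozygous genotype and 1 from a GCGR homozygous knockout, and 3 tumor libraries, here called A, B and C, came from 3 animals that were also homozygous knockouts. There was no wild-type library, the labels give no ages, and the islet and tumor values sit in separate tables, so tissue, table and handling cannot be told apart. Each islet genotype has 1 library, and comparisons between genotypes therefore have no replicate check.

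Arginase splits arginine into ornithine and urea, with Arg1 in the cytosol and Arg2 in mitochondria, while Ass1 and Asl rebuild arginine from citrulline and aspartate. Glul joins ammonia to glutamate to make glutamine, and Glud1 runs between glutamate and 2-oxoglutarate in mitochondria, where it also releases ammonia. Got1 and Got2 are the cytosolic and mitochondrial aspartate aminotransferases of the malate-aspartate shuttle. In liver, glucagon drives amino acid breakdown, and loss of its signal is known to raise circulating amino acids and to expand alpha cells, which make glucagon in the islet. The glutamine transporter Slc38a5 is known to appear in dividing alpha cells under that condition.

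After removal of predicted doublets 495 to 2843 cells remained per library, with 10508498 to 34101553 UMIs (unique molecular identifiers, 1 per captured transcript) in the libraries before removal. Levels are given in CPM, UMIs of the gene per 1000000 UMIs of the pooled cells, with 95% Poisson intervals that cover counting error only. The libraries count 3' ends, so levels are compared for 1 gene across cells and not between genes. Gcgr gave 137 UMIs in the heterozygous library, 0 in the homozygous library and 0, 1 and 3 in tumors A, B and C. Glucagon, Gcg, stood at 339500 and 326400 CPM in heterozygous and homozygous cells that the authors typed as alpha, and at 284200 to 364300 CPM in the tumors. Below, alpha-like means the islet cells of the alpha type together with the tumor cells. Tumors A and B each fell almost wholly into 1 cluster of their own, so there cluster and library cannot be told apart, while tumor C fell into clusters 2 (697 cells) and 4 (385 cells).

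Arg1 was highest in delta cells, the somatostatin cells of the islet. In the heterozygous library it stood at 599.7 CPM in delta cells (530.1 to 676, 269 UMIs in 62 cells), 78.4 in alpha cells (69.0 to 88.7, 252 UMIs), 4.52 in beta cells (3.57 to 5.64) and 3.51 in endothelial cells (0.724 to 10.3). In the homozygous library delta and alpha cells were again highest, with 142.8 CPM in delta cells (130.5 to 156, 493 UMIs in 332 cells) and 7.94 in alpha cells (6.81 to 9.21, 176 UMIs). PP cells had 2.18 CPM (0.595 to 5.59) and beta cells 1.42 CPM (0.615 to 2.81). Stellate cells (5.26 CPM) and the class Unknown2 (3.66 CPM) had 1 Arg1 UMI each, and endothelial cells had 0. Delta, alpha and beta intervals were apart in both libraries, while those of PP and beta cells overlapped. Macrophages, the cells in which Arg1 is best known outside liver, gave no Arg1 UMI in 44 heterozygous cells, which at a floor of 3 counts allows up to 17.7 CPM.

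With every cell reduced at random to 5000 UMIs (thinned), the share of cells with an Arg1 UMI followed the same order. The share was 88.6% of heterozygous delta cells (39 of 44, exact binomial interval 75.4 to 96.2) and 47.0% of homozygous delta cells (135 of 287, 41.1 to 53.0). In alpha cells it was 27.8% (72 of 259) and 4.21% (60 of 1427), and in beta cells, taken as the background, it was 2.50% (17 of 680) and 0.943% (4 of 424). Before thinning, median depth was 10002.5 UMIs in heterozygous alpha cells, 26444 in heterozygous beta cells, 14086 in homozygous alpha cells and 10854 in homozygous beta cells. All 4 shares in alpha and delta cells thus lay above that in beta cells of the same library. Without thinning, 49.7% of heterozygous and 9.51% of homozygous alpha cells had an Arg1 UMI.

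**Figure D1:**
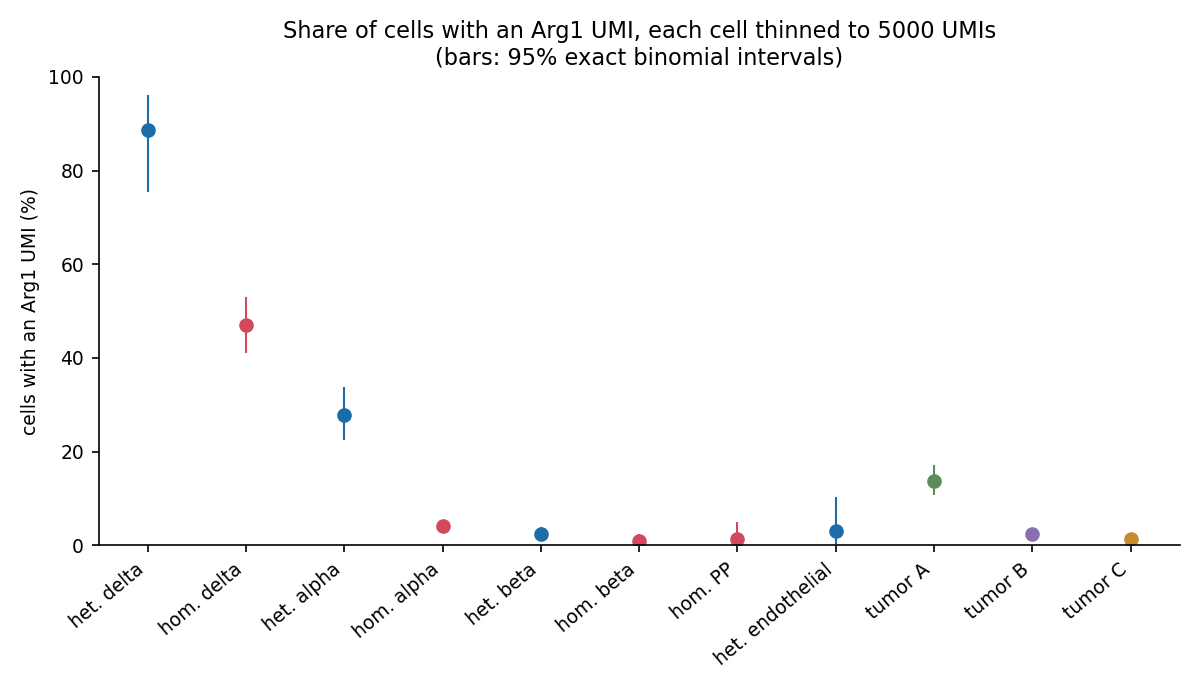
Share of cells with at least 1 Arg1 UMI (y axis, percent) in each cell class with 20 or more cells of 5000 UMIs (x axis), with exact binomial intervals of 95%. The 2 delta classes stand highest at 88.6% and 47.0%, heterozygous alpha cells follow at 27.8%, tumor A stands at 13.8%, and the other classes are below 5%.

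Arg1 was also counted against somatostatin, Sst, the hormone of delta cells. There were 4.03 Arg1 UMIs per 1000 Sst UMIs in heterozygous delta cells against 76.9 in alpha cells of that library, and 0.667 against 2.59 in the homozygous library. Beta cells stood at 6.59 (heterozygous) and 0.350 (homozygous), and homozygous PP, stellate and Unknown2 cells at 0.626, 2.06 and 1.04, the last 2 on 1 Arg1 UMI each. Alpha cells with an Arg1 UMI had a median of 729 CPM of Sst in the heterozygous library and those without 654, and the UMIs of these cells pooled gave 1202 against 793 CPM. In the alpha cells of both libraries UMIs were found of 3 or 4 of the 4 delta markers, summing to 1990 CPM (heterozygous) and 4569 CPM (homozygous, Ghsr at 0). Of these sums Sst made up 1019 and 3069 CPM and Hhex 3.11 and 2.53 CPM. The rest was Rbp4, with Ghsr in the heterozygous library only. The same markers summed to 1045 CPM in tumor A and 1810 CPM in tumor B, where Sst stood at 7.54 and 0.487 CPM. The part of delta cell RNA in the Arg1 of alpha cells was not tested.

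Arg2 was barely detected: the highest count was 5 UMIs, in the 842 cells of the main class of tumor B (0.222 CPM). The highest level was 0.579 CPM (2 UMIs), in homozygous delta cells. Heterozygous alpha cells had none, which allows up to 0.933 CPM. Small classes with none allow more, up to 33.3 CPM in heterozygous stellate and 17.7 CPM in macrophages. Arg2 did not reach the filter on low values, so 7 of the 8 enzymes were tested below.

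Ass1 in endothelial cells, the lining of islet capillaries, stood at 72.6 CPM (55.7 to 93.1, 62 UMIs) in the heterozygous library, where it was highest, and at 33.6 CPM (20.2 to 52.4, 19 UMIs) in the homozygous library. There a class that the authors named Unknown2 stood at 43.9 CPM (22.7 to 76.7, 12 UMIs), with an interval that overlapped that of endothelial cells. Heterozygous macrophages had 29.5 CPM (9.59 to 68.9, 5 UMIs). Delta cells had 15.6 CPM (6.27 to 32.2, 7 UMIs) and 19.1 CPM (14.8 to 24.3, 66 UMIs), above the alpha cells of their library. Alpha cells stood at 2.80 CPM (1.28 to 5.31, 9 UMIs) and 6.002 CPM (5.03 to 7.11, 133 UMIs), beta cells at 2.78 and 3.56 CPM, and no Ass1 UMI was found in 151 homozygous PP cells, which allows up to 1.64 CPM.

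An Ass1 level here may hold or miss reads of a near-identical copy. Gm5424, listed as its own gene row, has a transcript of 1240 bases in GENCODE vM21 that aligned over its whole length to Ass1-201 (1696 bases) with 99.5% identity (1234 of 1240 positions). Gm5424 took 31.5% to 41.7% of the UMIs of the pair in delta, endothelial, homozygous alpha and main tumor classes, and 18.2% (2 of 11 UMIs) in heterozygous alpha cells. No source used here says how reads were divided between them. Summed over the pair, the level in heterozygous and homozygous cells was 121 and 56.5 CPM in endothelial cells, 26.8 and 31.6 CPM in delta cells and 4.52 and 7.12 CPM in beta cells, and it was 80.4 CPM in Unknown2 and 41.4 CPM in macrophages. For alpha and tumor cells the sum is given beside the Ass1 results.

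Asl, which follows Ass1 in the cycle, stood at like levels in the alpha cells of both genotypes. In alpha cells its level was 16.8 CPM (heterozygous) and 15.0 CPM (homozygous), with 11.9 and 8.72 in beta cells and 37.9 (22.1 to 60.7, 17 UMIs) and 13.9 (10.3 to 18.4) in delta cells. Heterozygous macrophages were highest at 65.0 CPM (32.5 to 116, 11 UMIs).

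Glul had its highest levels outside the endocrine cells. Stellate cells, the matrix-making cells around vessels, had 333 CPM in the heterozygous library (225 to 476, 30 UMIs) and 905 CPM in the homozygous library (775 to 1051, 172 UMIs). The homozygous class Unknown2, in which 7 of 7 macrophage markers in the table had UMIs and summed to 55760 CPM, stood at 676 CPM. Endothelial cells had 207 and 245.5 CPM. Heterozygous macrophages, at 142 CPM (90.9 to 211, 24 UMIs), overlapped beta cells of their library. Among endocrine cells Glul was highest in beta cells, at 133 CPM (128 to 139) and 141 CPM (132 to 152), then in alpha cells at 96.7 (86.3 to 108) and 57.9 (54.8 to 61.2), and lowest in homozygous PP cells at 28.9 (21.7 to 37.8). Heterozygous delta cells, at 80.3 (56.2 to 111), overlapped alpha cells of their library. Homozygous delta cells, at 38.2 (32.0 to 45.4), lay below alpha cells of their library and overlapped PP cells.

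Glud1 set alpha cells apart from beta cells in both islet libraries. Alpha cells of the heterozygous library stood at 87.1 CPM (77.2 to 97.9) and those of the homozygous library at 43.3 (40.6 to 46.1), against 17.4 (15.5 to 19.5) and 21.7 (18.0 to 25.9) in beta cells. Delta cells, at 60.2 (39.7 to 87.6) and 41.1 (34.7 to 48.5), overlapped alpha cells of the same library, and homozygous PP cells had 28.9 CPM. Endothelial cells were above all endocrine classes, at 128 and 154 CPM.

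Among endocrine classes Got1 ranged from 10.4 CPM in heterozygous beta cells to 17.8 CPM in heterozygous delta cells, and Got2 from 3.82 CPM in homozygous PP cells to 15.6 CPM (7 UMIs) in heterozygous delta cells. Endothelial cells had 30.4 and 26.5 CPM of Got1 and 23.4 and 10.6 CPM of Got2.

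**Figure D2:**
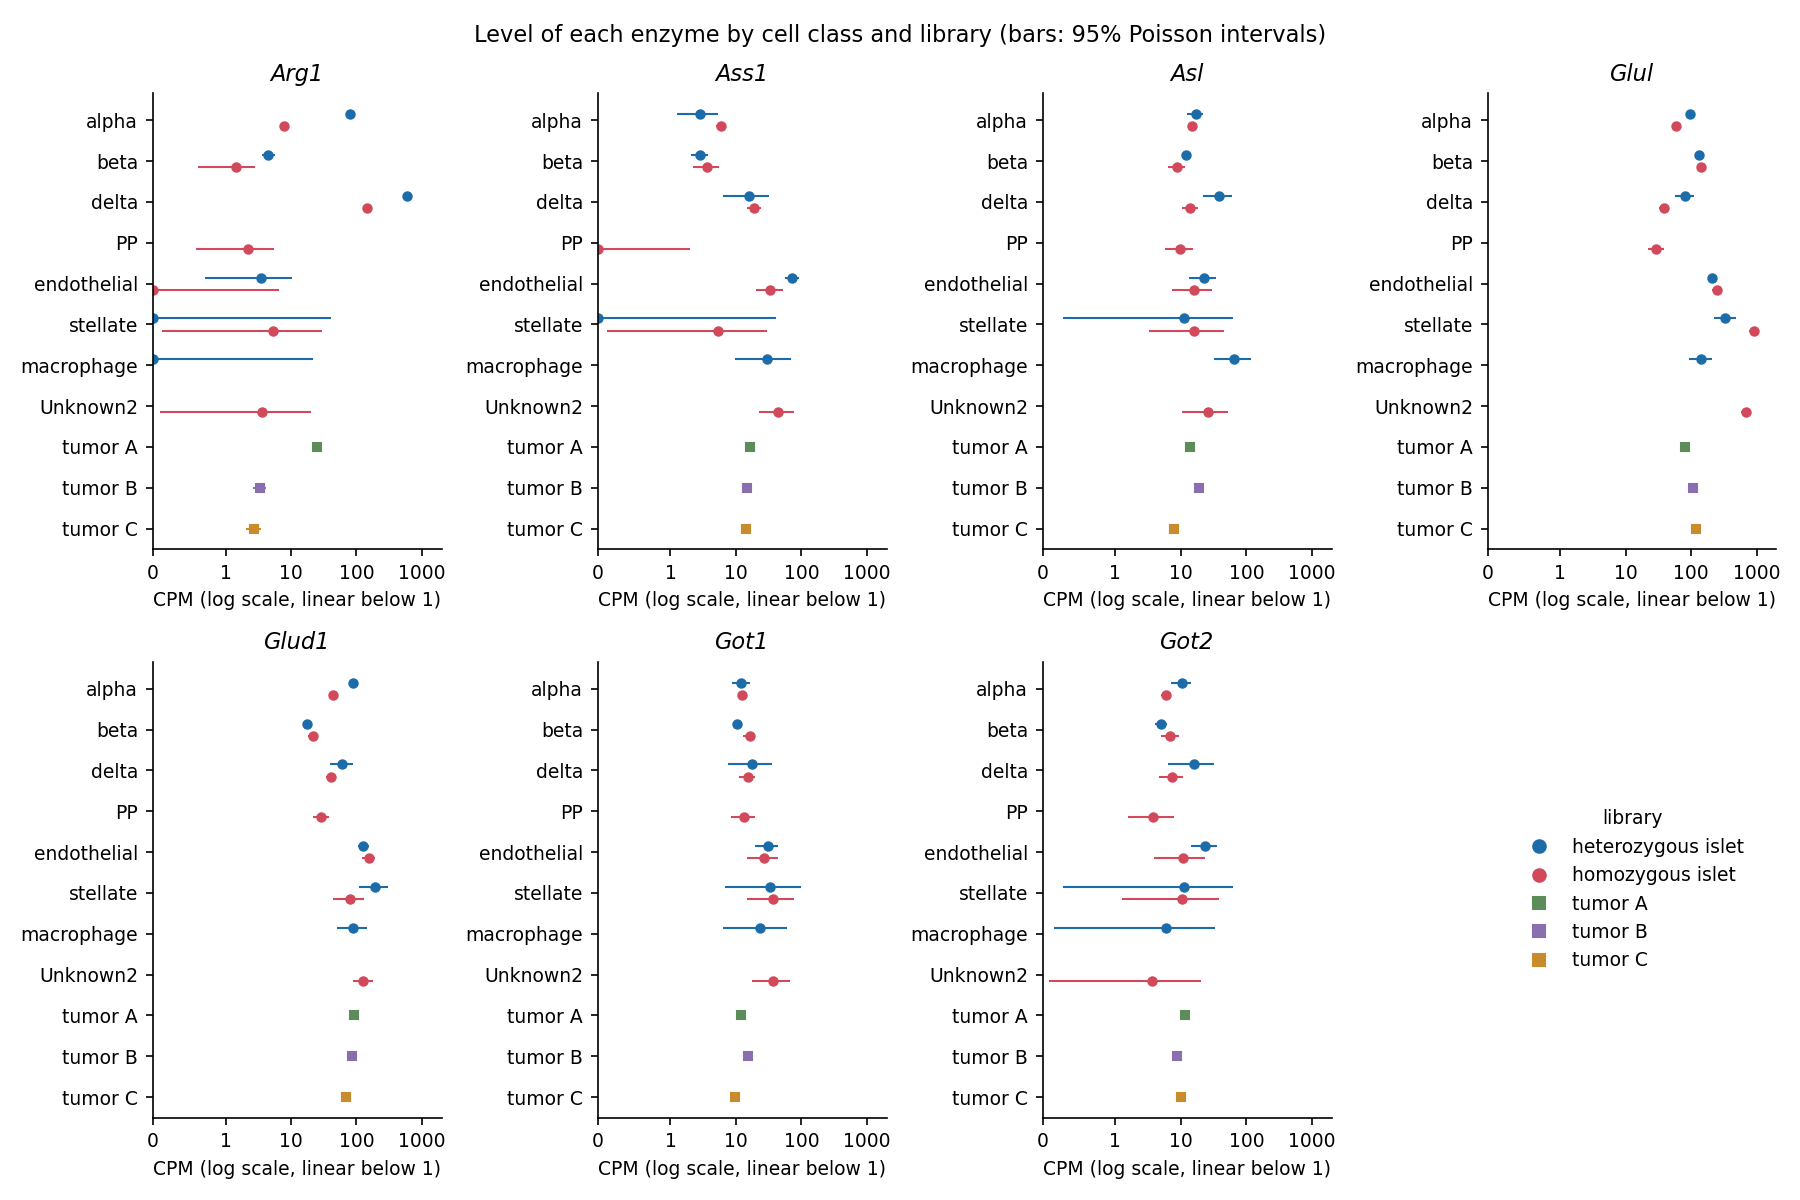
Pooled level in CPM (x axis, log scale above 1 and linear below) of the 7 enzymes other than Arg2 in each islet cell class with 20 or more cells and in each tumor library (y axis), with Poisson intervals of 95%. Arg1 is highest in delta cells, Ass1 and Got2 in heterozygous endothelial cells and Glul and Got1 in homozygous stellate cells, Got1 there on 7 UMIs.

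For each enzyme the genes with the most similar levels over the 17 classes of 20 or more cells were ranked by Pearson correlation of log2(CPM + 1). The classes share libraries and depth, and the values are descriptions. The closest gene to Arg1 was Igsf5 (0.86), followed by Neurog3, the endocrine progenitor factor (0.85). Ass1 was closest to Pigm (0.93) and Gm5424 (0.92), Asl to Nudt2 (0.90), Glul to Lgals1 (0.89), Glud1 to Uimc1 (0.93), Got1 to Tmem160 (0.95) and Got2 to Pitpnb (0.91). Arg2 was too low for its list to be read.

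The first comparison set homozygous against heterozygous islet cells of the same type, which asks how levels compare between animals with 1 and with no intact copy of the receptor gene. Levels of Arg1 were lower in homozygous alpha and delta cells, and in alpha cells those of Glud1 and Glul were lower too. For Asl and Got1 in alpha cells the intervals held 1, and Ass1 was higher on few UMIs. Ratios are given relative to the median gene, since the median ratio of genes at 50 CPM or more was 0.857 in alpha and 0.746 in delta cells. With 1 library per genotype no test was made.

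Arg1 in alpha cells went from 78.4 to 7.94 CPM, a relative ratio of 0.118 (0.0970 to 0.144). In delta cells the ratio was 0.319 (0.275 to 0.372), and in beta cells it was 0.324 (0.135 to 0.670), there on 78 and 8 UMIs. Heterozygous values were higher in delta and alpha cells, by the larger factor in alpha cells. The beta cell level is the one taken as background above, and whether it is expression in beta cells was not tested. Both homozygous alpha clusters were low, with relative ratios of 0.127 in cluster 2.1 and 0.0986 in cluster 2.2.

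Glud1 in alpha cells had a relative ratio of 0.580 (0.507 to 0.665) and Glul 0.699 (0.617 to 0.794). In delta cells Glul was 0.639 (0.439 to 0.951) and Asl 0.492 (0.278 to 0.913), whereas Glud1 was 0.916 (0.604 to 1.44). Got2 in alpha cells was 0.677 (0.460 to 1.02), Asl 1.04 (0.781 to 1.42) and Got1 1.19 (0.848 to 1.71). Of these 5 enzymes in alpha cells only Glul and Glud1 had intervals wholly below 1.

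Ass1 in alpha cells was higher in the homozygous library, with a relative ratio of 2.50 (1.28 to 5.59) that rests on 9 heterozygous UMIs. It was 8.31 CPM in homozygous cluster 2.1 and 1.92 CPM in cluster 2.2, and against cluster 2.2 alone the ratio was 0.920 (0.377 to 2.39). Summed with Gm5424, alpha cells had 3.42 CPM in the heterozygous library (1.71 to 6.12) and 9.84 CPM in the homozygous library (8.58 to 11.2). In endothelial cells Ass1 lay the other way, at 0.470 (0.265 to 0.796).

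Beta cells had Got1 at 1.61 (1.23 to 2.08), and Got2 at 1.42 (0.944 to 2.09). Stellate cells had Glul at 2.73 (1.84 to 4.17) and Glud1 at 0.420 (0.195 to 0.894), in 33 heterozygous and 74 homozygous cells. Endothelial Glul, at 1.20 (0.957 to 1.51), and Glud1, at 1.22 (0.913 to 1.64), had intervals that held 1.

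By a rule that the interval lie beyond 1.5-fold of the median gene, 2 of the 8 enzymes (Arg1 and Glud1) were lower and 0 higher in homozygous alpha cells. Over the 9950 genes at 5 CPM or more in either library the same rule held for 7.80% lower and 3.81% higher. In delta cells Arg1 alone was lower and none was higher, against 2.12% lower and 1.32% higher of 10667 genes. Glud1 no longer met the rule with 8 hormone transcripts left out of the totals (0.602, 0.526 to 0.690). The summed level of 7 immediate early genes (Fos, Egr1 and others, which rise with cell handling) moved with genotype, from 2699 to 249.6 CPM in alpha, 2020 to 493 in delta and 697 to 407 in beta cells. Its part in the Arg1 result was not tested.

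**Figure D3:**
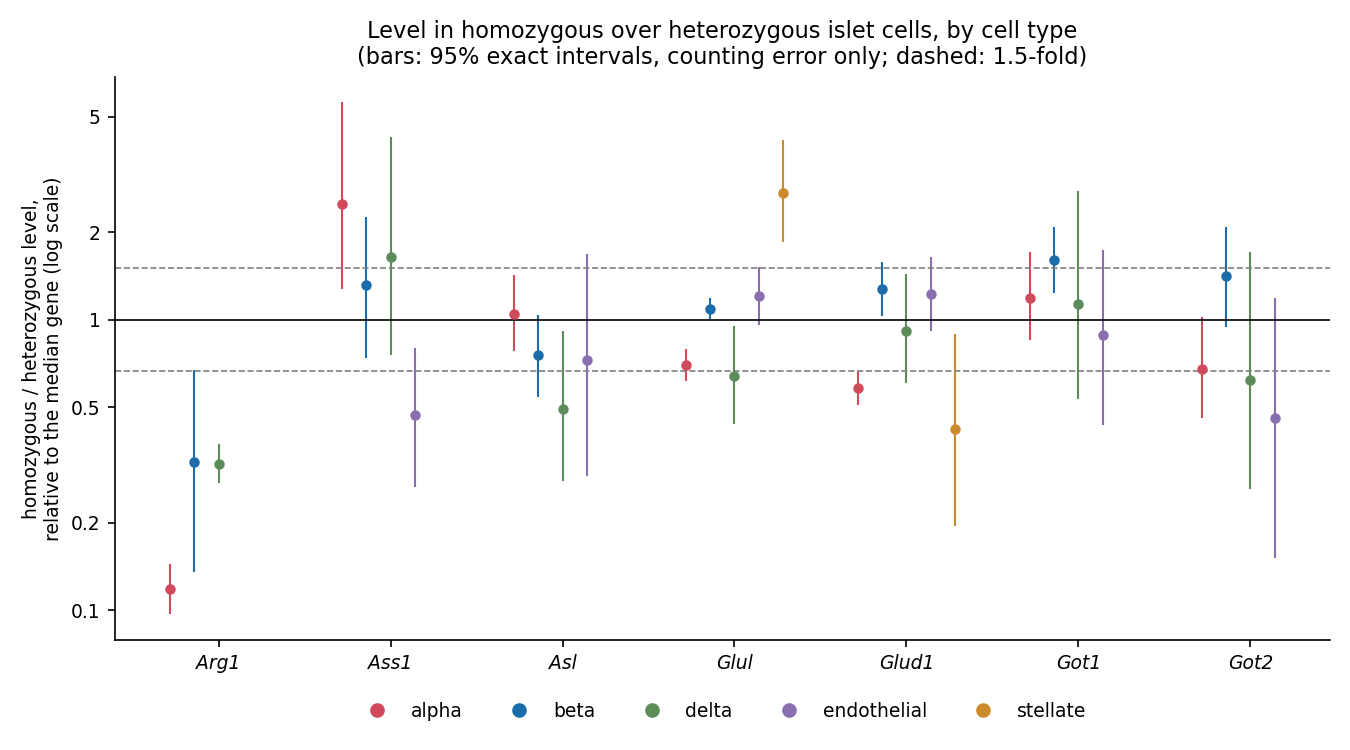
Homozygous over heterozygous level relative to the median gene (y axis, log scale) of 7 enzymes (x axis) in 5 islet cell types, where both libraries had a UMI and together 20 or more. Bars are exact intervals of 95% for counting error only and dashed lines mark 1.5-fold. Arg1 lies below 1 in alpha, beta and delta cells, and Ass1 and Glul lie on opposite sides of 1 in different cell types.

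Other genes of these pathways were read by the same rule in alpha cells, beside 7.80% lower and 3.81% higher over the 9950 genes. Of 13 arginine, polyamine and proline genes at 5 CPM or more, 3 were higher in the homozygous library and 2 lower. Higher were Gatm, which makes the creatine precursor from arginine (14.3 to 74.7 CPM, relative ratio 6.09, 4.55 to 8.35), Srm, spermidine synthase (24.3 to 64.1, ratio 3.09), and Oat, ornithine aminotransferase (22.7 to 42.0, ratio 2.16). Lower were Sat1, which acetylates polyamines for breakdown (18.0 to 6.18, ratio 0.400), and Nos3, the endothelial nitric oxide synthase (5.91 to 1.35, ratio 0.267). UMIs of 7 of 7 endothelial markers were found in alpha cells of both libraries, summing to 58.2 CPM and 24.4 CPM, and their part in Nos3 was not tested. Markers of acinar cells of the pancreas summed to 6.84 CPM in heterozygous and 178.7 CPM in homozygous alpha cells. The part of acinar RNA in the Gatm, Srm and Oat ratios was not tested.

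Among glutamine and glutamate genes Gad1, which makes GABA from glutamate, was lower (5.60 to 0.587 CPM, 18 and 13 UMIs). Among 10 aspartate and malate shuttle genes pyruvate carboxylase Pcx was lower (13.4 to 3.79 CPM, ratio 0.331). Among 19 other breakdown genes Tdo2, which opens the tryptophan ring (ratio 0.0589, 23 and 8 UMIs), and Cbs of the transsulfuration pathway (21.5 to 4.69 CPM, ratio 0.255) were lower. None of these 3 lists held a gene that was higher by the rule. Over all genes the rule held for 7.80% lower and 3.81% higher. The relative medians of the 4 lists were 0.03, 0.12, -0.22 and -0.26 on the log2 scale, against -0.17 for all genes.

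The second comparison set the 3 tumor libraries against alpha cells of the 2 islet libraries, which asks how tumor cells differ from the cell type they resemble. Of the 7 enzymes tested, Ass1 rose in tumors and the other 6 did not pass the test. The values are mean CPM over cells, tested as log2(mean CPM + 1) with limma over 10173 genes, of which 2.08% were called higher (212 genes) and 0.138% lower (14 genes). The median gene was higher by log2 0.24, and relative changes are given after taking that off.

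Ass1 averaged 2.64 CPM in heterozygous and 5.45 CPM in homozygous alpha cells and 16.1, 14.3 and 14.1 CPM in tumors A, B and C. All 3 tumors were above both islet libraries, as were 33.3% of all genes, while 5.73% were below. The log2 change was 1.71, or 1.47 ± 0.32 (SE) relative to the median gene, with a limma adjusted p of 0.0399. With Gm5424 added the 5 values were 3.29, 9.20, 25.3, 22.5 and 21.0 CPM, and the limma adjusted p was 0.0478.

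The Ass1 call was lost in 10 of 18 alternatives, with adjusted p from 0.0386 to 0.183, while the direction held in all 18. It was lost without the heterozygous library (0.123), without tumor A (0.119), B (0.0880) or C (0.0991), with only homozygous cluster 2.1 in the islet arm (0.111), with TMM scaling (0.120) and with edgeR (0.183). UMIs of 7 of 7 endothelial markers were found in each arm, summing to 58.2 and 24.4 CPM in heterozygous and homozygous islet alpha cells and to 41.1, 3.81 and 48.7 CPM in tumors A, B and C. Those of 7 of 7 macrophage markers in the table summed to 190 and 75.0 CPM in the islets and to 179.5, 46.3 and 271 CPM in the tumors. The part of either cell type in the Ass1 result was not tested.

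Arg1 averaged 86.4 CPM in heterozygous alpha cells, 9.09 in homozygous alpha cells and 25.7, 3.16 and 2.29 in tumors A, B and C. The arms overlapped, since tumor A lay above homozygous alpha cells, and the log2 change relative to the median gene was -2.30 ± 1.06 (SE, limma adjusted p 0.306). Before the median was taken off the change was -2.06, and it was -0.50 without the heterozygous library, -3.61 without the homozygous library and -3.01, -1.67 and -1.50 without tumor A, B or C, none past the threshold. In tumor A 13.8% of thinned cells (66 of 479) had an Arg1 UMI, against 2.38% (20 of 842) in B and 1.31% (14 of 1068) in C, which both lay between the shares of the 2 beta cell classes. Tumor A held 0 cells above 10000 CPM of Sst and B held 0, whereas 6 such cells in tumor C held 15 of its 59 Arg1 UMIs, and without them its pooled level went from 2.71 to 2.04 CPM.

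Glul averaged 101 CPM in the heterozygous islet arm, 61.4 CPM in the homozygous one and 82.1, 106 and 127 CPM in the tumors (relative log2 0.15, limma adjusted p 0.522). Glud1 averaged 90.9 and 46.1 CPM in the islets and 89.3, 86.4 and 71.5 CPM in the tumors (relative log2 0.10, adjusted p 0.592). Within tumor C, Glul was 133 CPM (127 to 139) in cluster 2 and 97.2 CPM (90.6 to 104) in cluster 4, while Glud1 was 66.0 (61.7 to 70.5) and 73.4 (67.7 to 79.5). For both enzymes the tumors lay in or above the span of the 2 islet genotypes, and the homozygous alpha cells were the lowest of the 5 libraries.

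Asl averaged 14.9 and 15.6 CPM in islets and 13.0, 19.1 and 7.33 CPM in tumors (relative log2 -0.53, limma adjusted p 0.699). Got1 averaged 13.2 and 12.2 CPM against 11.9, 15.3 and 9.32 CPM (relative log2 -0.32, adjusted p 0.897), and Got2 8.60 and 6.43 CPM against 11.2, 8.58 and 9.64 CPM (relative log2 0.11, adjusted p 0.524). Tumor libraries lay on both sides of islet alpha cells for Asl and Got1. With 2 libraries against 3, a p that misses the threshold does not show that levels were alike.

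**Figure D4:**
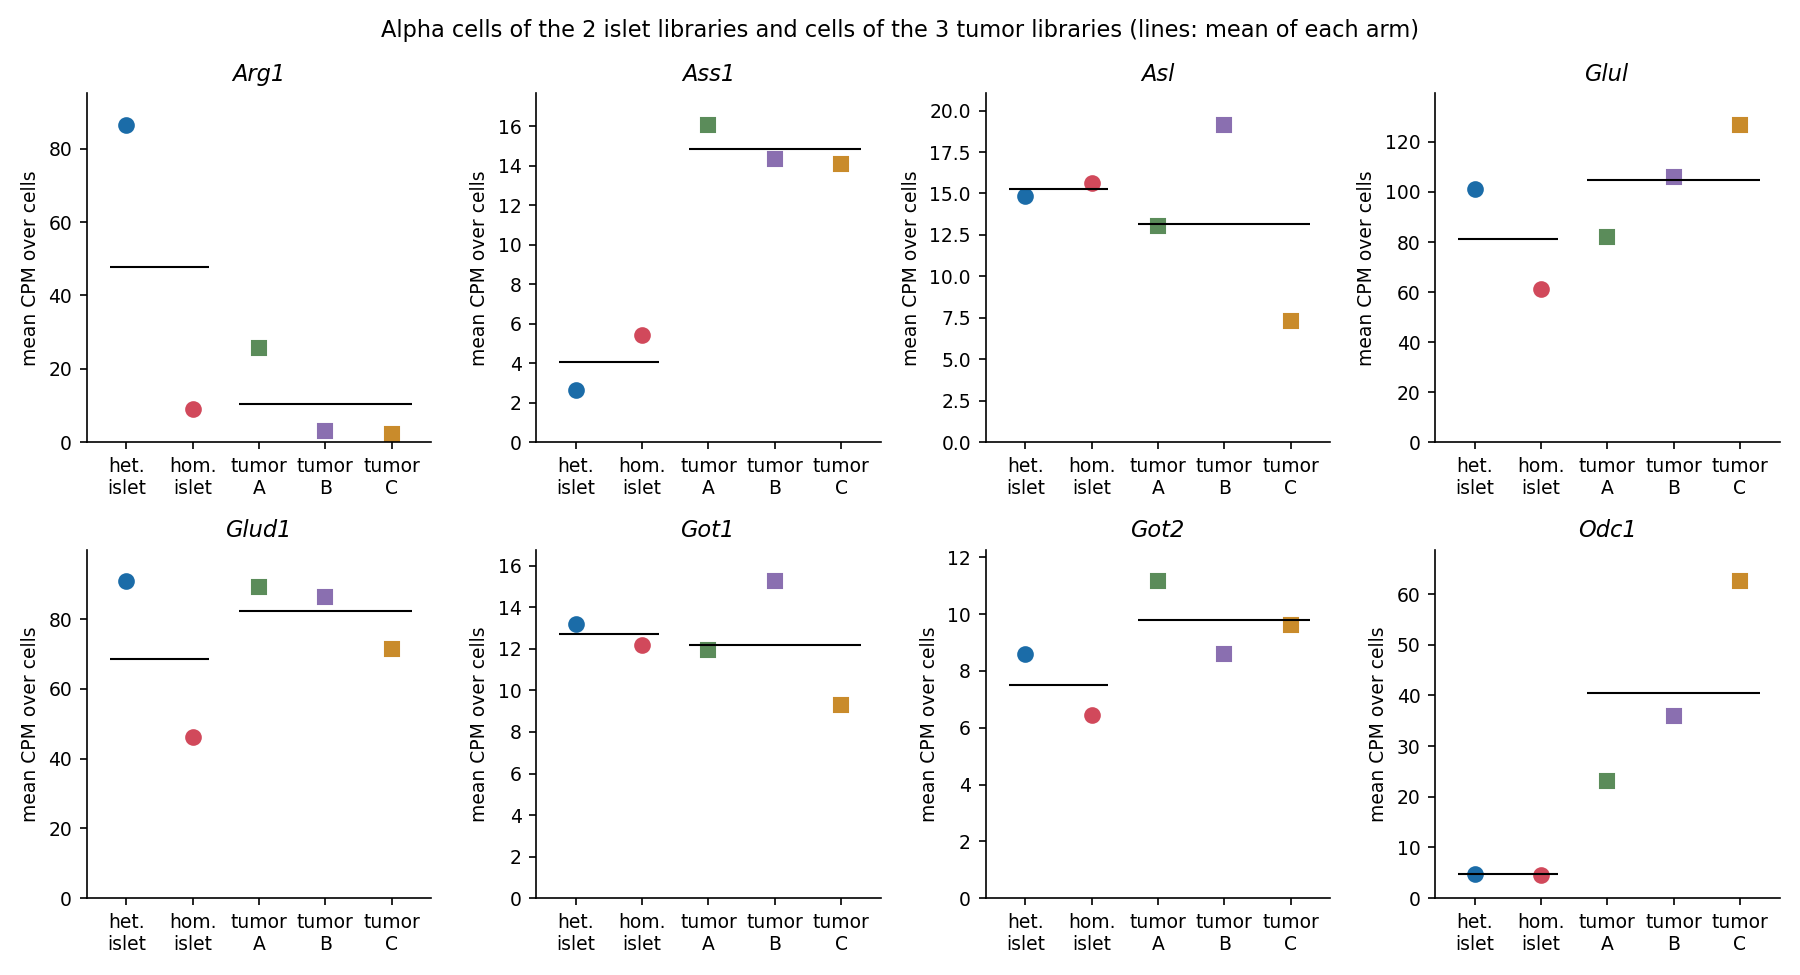
Mean CPM over cells (y axis, from 0) of 7 enzymes and Odc1 in alpha cells of the heterozygous and homozygous islet libraries and in tumors A, B and C (x axis), 1 point per library, with lines at the mean of each arm. Ass1 and Odc1 have all 3 tumors above both islet libraries, and Arg1 is highest in heterozygous alpha cells.

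Among the other genes of these pathways 2 passed the test, both higher in tumors. Odc1, ornithine decarboxylase, which uses the product of arginase to start polyamine synthesis, averaged 4.73 and 4.67 CPM in islets and 23.1, 36.0 and 62.5 CPM in tumors A, B and C. Its log2 change was 2.51 ± 0.39 (SE) relative to the median gene with a limma adjusted p of 0.0247, and it was the 1 gene called of 13 tested on the arginine, polyamine and proline list. The call was lost in 6 of 19 alternatives (adjusted p 1.018e-06 to 0.123), among them without the heterozygous (0.123) or the homozygous library (0.0865).

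Gldc, the glycine-cleaving decarboxylase, averaged 1.64 and 4.28 CPM in islets and 14.3, 10.7 and 13.7 CPM in tumors, a relative log2 change of 1.65 ± 0.37 (SE, limma adjusted p 0.0467). It was the 1 call of 19 on the list of other breakdown genes, and was lost in 14 of 18 alternatives (adjusted p 0.0439 to 0.218), among them on leaving out any 1 of the 5 libraries (0.0538 to 0.127). None of 19 glutamine and glutamate genes and none of 11 aspartate and malate shuttle genes passed limma's adjusted threshold. At an unadjusted p under 0.05, 6 of 13 arginine, 4 of 19 glutamine, 4 of 11 aspartate and 1 of 19 other genes were higher, beside 1885 of all 10173 genes. The medians of the 4 lists relative to all genes were 0.52, 0.04, 0.05 and 0.04 on the log2 scale, in the order arginine, glutamine, aspartate and other.

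The third comparison split alpha-like cells by the amino acid transporter Slc38a5, since the study's title asks about a subpopulation of alpha cells and amino acids. It asked whether cells in which Slc38a5 was detected at a fixed depth differed in these enzymes from other cells of the same library. Cells were split by whether they held an Slc38a5 UMI after thinning to 5000 UMIs. This gave 67 and 192 cells with and without in the heterozygous library and 986 and 441 in the homozygous library. In tumors A, B and C it gave 430 and 49, 817 and 25, and 1028 and 40. Cells called negative still held Slc38a5, at a mean of 22.8 CPM in the heterozygous and 61.9 CPM in the homozygous library. In tumors A, B and C they held 192.9, 290.4 and 227.5 CPM. Positive cells held 257.8, 1037, 1174, 1809 and 1656 CPM in the same order of libraries. Without thinning 14, 2 and 6 cells of tumors A, B and C had no Slc38a5 UMI. No enzyme passed limma's threshold with library as a block. Over 10960 genes 0.0365% were called higher (4 genes) and 0.0274% lower (3 genes), and at an unadjusted p under 0.05 there were 1297 higher and 106 lower genes.

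Ass1 was higher in Slc38a5-positive cells of all 5 libraries, as were 11.3% of all genes. Its mean level was 4.56 against 2.62 CPM in heterozygous alpha cells, 7.03 against 2.41 in homozygous alpha cells, and 17.8 against 6.21, 14.8 against 1.52 and 14.4 against 5.17 in tumors A, B and C. The log2 difference relative to the median gene was 1.30 ± 0.30 (SE), with a limma adjusted p of 0.110. In the negative cells these means rest on 5, 15, 5, 1 and 4 UMIs.

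Summed with Gm5424, the pair stood at 7.54 against 2.62 CPM, 11.8 against 4.08, 28.2 against 8.65, 23.2 against 4.42 and 21.6 against 7.14 CPM in the 5 libraries, and passed the threshold (limma adjusted p 0.0254). This sum was chosen after the values were seen. Ass1 alone passed it with edgeR on recovered UMIs (adjusted p 0.00207), and over 14 alternatives its adjusted p ranged from 0.00207 to 0.9999. Positive cells also had more UMIs, with medians of 12583 against 10409.5 in the heterozygous library and 26214 against 23083 in tumor B, and the part of depth in the result was not tested.

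For the other enzymes neither direction passed the test. Arg1 was lower in positive cells of 4 libraries and higher in tumor C, with 70.0 against 78.8 CPM in heterozygous and 7.82 against 11.0 CPM in homozygous alpha cells (relative log2 -0.32 ± 0.22 (SE), limma adjusted p 0.770). Glul was higher in 4 of 5 libraries (relative log2 0.05 ± 0.13, limma adjusted p 0.523), with its widest gap in tumor A at 83.4 against 50.6 CPM. Glud1 was higher in 3 and lower in 2 libraries, with 87.6 against 42.4 CPM in tumor B and 70.4 against 81.1 CPM in tumor C (limma adjusted p 0.561).

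Got2 was lower in positive cells of the heterozygous islet library, at 7.94 against 10.9 CPM. In the homozygous library it was nearly equal, at 6.86 against 6.91 CPM. It was higher in positive cells of all 3 tumors, at 12.6 against 2.25, 8.66 against 7.21 and 9.98 against 4.61 CPM (limma adjusted p 0.480). The negative cells of tumors A, B and C numbered 49, 25 and 40, so these low means rest on few cells. Got1 was higher in 3 libraries (limma adjusted p 0.695), and Asl was higher in 1 (limma adjusted p 0.845). Of 15, 19, 11 and 20 genes tested on the arginine, glutamine, aspartate and other breakdown lists none passed limma's adjusted threshold, and 2, 2, 1 and 2 were higher at an unadjusted p under 0.05. Their medians relative to all genes were 0.02, 0.11, 0.02 and 0.05 on the log2 scale.

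**Figure D5:**
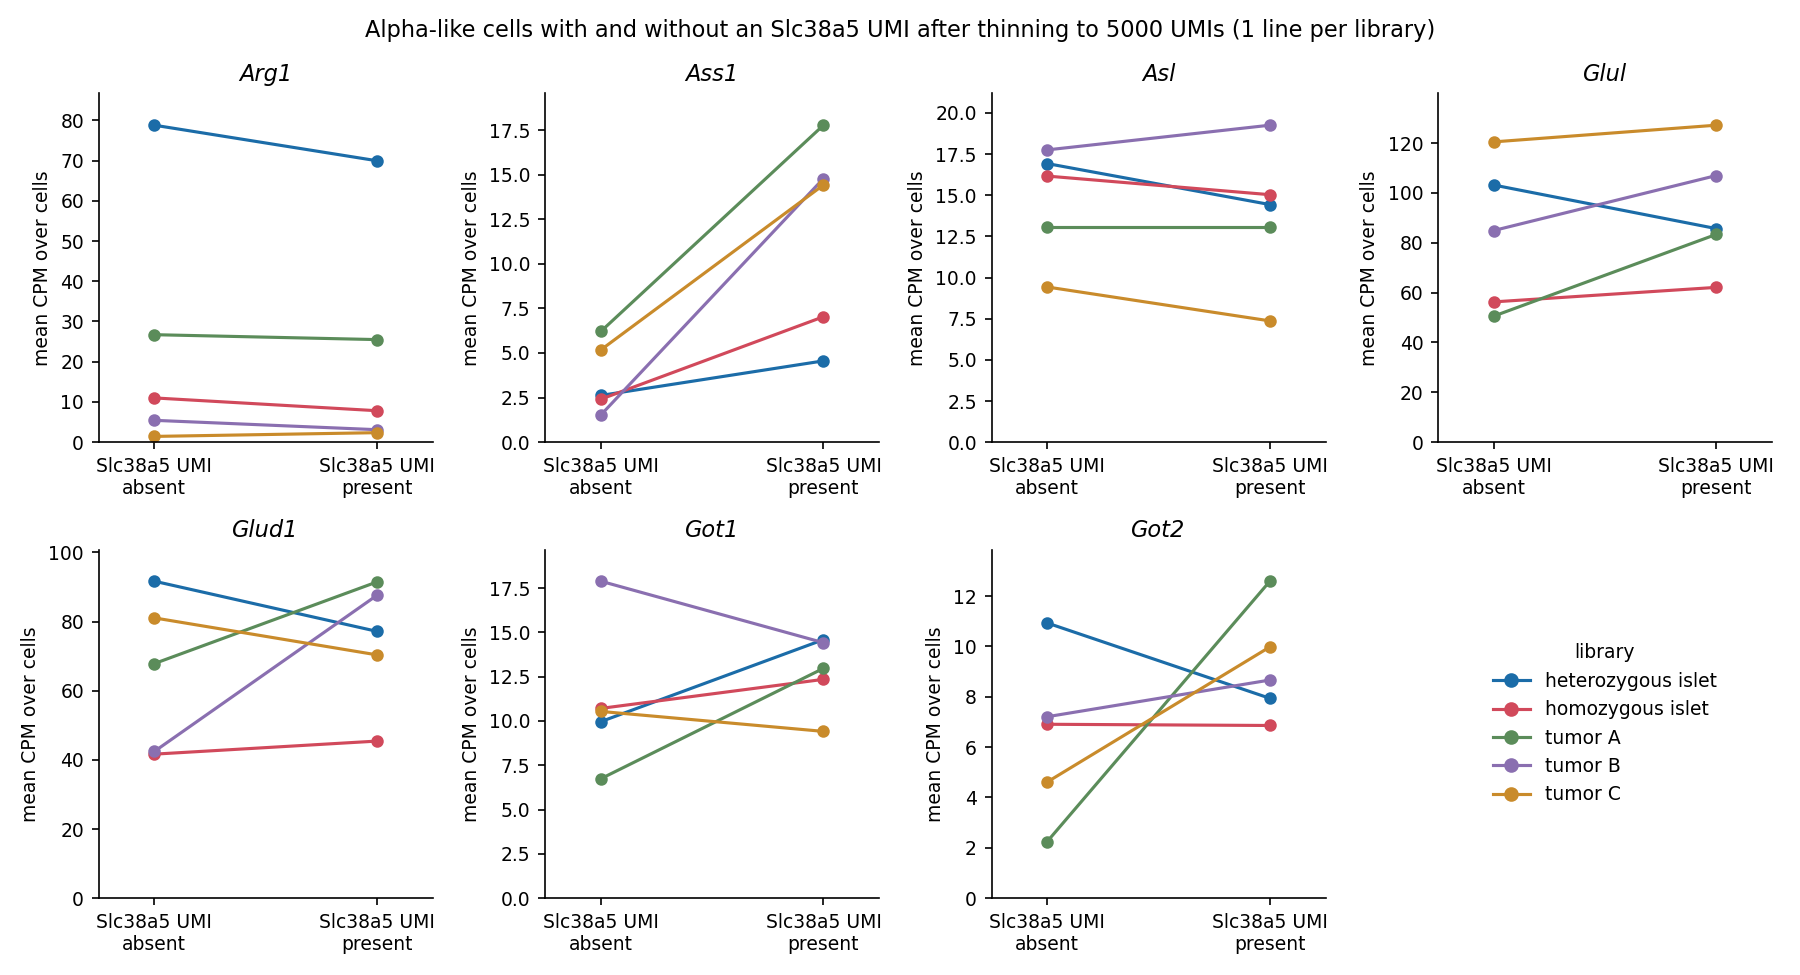
Mean CPM over cells (y axis, from 0) of 7 enzymes in alpha-like cells without and with an Slc38a5 UMI after thinning to 5000 UMIs (x axis), with 1 line per library. Ass1 lines go up in all 5 libraries, and the lines of the other enzymes go both ways. Got2 lines go up in the 3 tumors, down in the heterozygous islet library and are nearly flat in the homozygous one.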

How the data were processed

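The authors deposited, per the file headers, a signal per gene and cell: the UMIs of a gene over the total of the cell, times a constant. The constant was worked out here from the smallest value of each cell times its total, as 9936 (islets) or 12219 (tumors). The cell totals in those headers are deposited counts. The submitters' processing notes name CASAVA 1.8, bcl2fastq 2.17, GSNAP and GRCm38, with no role for any. Multiplying back gave whole UMIs for 100% of values (tolerance 0.01). CPM uses the recovered total of each cell, because the tumor header names exonic UMIs and the islet headers all UMIs. The median recovered total was 1.01, 1.02 and 1.03 times the deposited total in heterozygous, homozygous and tumor cells.

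Doublets called by Scrublet in scanpy 1.11.5 at an expected rate of 0.06 were removed, 8 from the heterozygous library, 1 from the homozygous one and 18, 9 and 15 from the tumors. No cell name was shared between libraries. Tumor libraries carry animal labels that could not be matched to single samples, and the letters follow label order. Cell types are the authors'. Classes needed 20 cells.

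Libraries, not cells, were the replicates. Mean CPM was tested with limma 3.58.1 (trended prior) in R 4.3.3 on genes with 5 CPM in 2 libraries, pseudocount 1 CPM, Benjamini-Hochberg at 0.05, with edgeR 4.0.16 and DESeq2 1.42.0 on recovered UMIs as alternatives. Fold changes on this scale understate those of low genes. Intervals are 95% and cover counting error only. Scripts were tested on simulated data.

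The enzymes, pathway lists and tests were chosen with earlier results of these data known. Named genes were the 8 enzymes, up to 4 genes per pathway list past the threshold with the lowest adjusted p, the closest genes by correlation, and Slc38a5 and Gcg; for genotype ratios list genes past the rule are named, which adds Oat after its value was seen, except 1 result that is not reported here. Of the list symbols Azin2 and Oaz1 were not matched.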

Additional observations from a re-analysis of the deposited data

Results flagged for a closer look

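Ass1, Glul and Glud1 had genotype ratios on opposite sides of 1 in different islet cell types, with intervals of counting error that exclude 1. The homozygous over heterozygous level relative to the median gene was 2.50 for Ass1 in alpha and 0.470 in endothelial cells. For Glul it was 2.73 in stellate and 1.09 in beta cells, against 0.699 in alpha and 0.639 in delta cells. For Glud1 it was 1.28 in beta cells, against 0.580 in alpha and 0.420 in stellate cells. With 1 library per genotype these differences between cell types were not tested, and with hormone transcripts left out of the totals the beta cell intervals of Glul (0.976 to 1.15) and Glud1 (0.998 to 1.54) held 1.

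Got2 was lower in Slc38a5-positive than negative cells of the heterozygous islet library, nearly equal in the homozygous one and higher in tumors A, B and C. The log2 difference was -0.42 in the heterozygous and -0.009 in the homozygous islet library and 2.07, 0.24 and 0.97 in tumors A, B and C. This difference between tissues was not tested, and the homozygous value is close to 0. The negative cells of tumors A, B and C numbered 49, 25 and 40, so the tumor values rest on few cells.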

How the results depend on the processing

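Genes higher in tumors numbered 212 in the chosen analysis, 19 with no filter, 35 with TMM, 49 with hormones out of the totals, 17 with edgeR, 395 with DESeq2, 102 with homozygous cluster 2.1 only and 14 to 143 on leaving out 1 library. Genes lower numbered 14, then 24 with a pseudocount of 5, 1 with no filter, 5 with TMM, 9 with hormones out, 1 with edgeR, 264 with DESeq2, 7 with cluster 2.1 only and 0 to 22 on leaving out 1 library. On leaving out 1 library the log2 change ranged from -3.613 (without the homozygous library) to -0.498 (without the heterozygous library) for Arg1, from -0.587 to 0.049 for Asl and from -0.245 to 0.084 for Got1, both above 0 only without tumor C, and from -0.146 to 0.818 for Glud1, below 0 only without the homozygous library.

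Genes higher in Slc38a5-positive cells numbered 4 with the library block, 0 with no replicate block, 0 with a pseudocount of 0.1, 10 with 5, 39 with edgeR, 0 split on all UMIs, 13 in tumors only and 0 to 24 on leaving out 1 library. Genes lower numbered 3, then 0 with no replicate block, 0 with a pseudocount of 0.1, 49 with edgeR, 28 with DESeq2, 0 split on all UMIs, 5 in tumors only and 0 to 6 on leaving out 1 library. Asl reversed (0.46) when split on all UMIs, where 3 libraries had 10 cells per class. The block pairs cells of 1 library, and Ass1 had an adjusted p of 0.9999 without it. No paired analysis was possible for tumors against islets because no sample is shared between the arms. The causes were not tested. Arg1 shares thinned to 3000 UMIs were 19.5% and 2.32% in heterozygous and homozygous alpha cells and 30.5% in homozygous delta cells. Counts under 10 UMIs limit Ass1 in heterozygous alpha cells and in Slc38a5-negative tumor cells.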
